A study of Homo sapiens with 4 samples.

Results

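ALDH-positive and ALDH-negative fractions of Huh7, an established line of human hepatocellular carcinoma, were compared across all genes. The comparison used 2 of the 4 arrays of the series, 1 for each fraction, and all 18377 genes that could be given a value. Every difference below is the log2 level on the array labelled ALDH+ minus the log2 level on the array labelled ALDH-, so a difference of 1 is 2-fold. A gene's level is that of the probe with exactly 1 gene symbol that had the highest mean over the 4 arrays.

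In the series, Huh7 cells were separated by flow cytometry for aldehyde dehydrogenase (ALDH) in one sort and for CD133, the surface protein encoded by PROM1, in another. The other 2 arrays hold the CD133-positive and CD133-negative fractions, and are used here only to set levels side by side. All fractions come from the same line, with no treatment, genotype change or time course in the labels, which also do not say how ALDH was assayed or whether the fractions came from separate cultures. Each fraction's RNA was hybridised to 1 Affymetrix Human Gene 1.0 ST array, so no difference has a replicate check and no test was made. The single array on each side bounds how precise any value here can be.

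Aldehyde dehydrogenases oxidise aldehydes to acids, among them retinal to retinoic acid and acetaldehyde to acetate. High ALDH activity and surface CD133 are both used to enrich for cells with stem-like properties in liver tumours. A dividing cell makes the DNA replication machinery and core histones for S phase, and then the kinases, motors and kinetochore proteins of mitosis, so the transcripts of these groups tend to move together with the share of cells that are dividing. Liver and intestine both arise from endoderm, and hepatocellular carcinoma lines can carry transcripts of the intestinal absorptive surface, the brush border.

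Most genes differed little between the ALDH fractions, and large differences were more often towards lower levels in ALDH-positive cells. The median difference over all 18377 genes was 0.03, and 95% of them fell in the range from -0.76 to 0.71. A gene was counted at a given fold only where the brighter of the ALDH arrays reached a floor of 4.98, the median of all log2 values, which 11879 genes did. By that rule 33 genes (0.180% of all) were higher in ALDH-positive cells by 2-fold or more, and 154 (0.838%) were lower. At 1.5-fold the counts were 493 higher (2.68%) and 784 lower (4.27%). No gene was 4-fold higher, and SLC26A3, LCT and NOX1 were 4-fold lower. For 23 of the 33 higher and 51 of the 154 lower genes the dimmer array did not reach the floor. With both arrays above it, 10 genes were 2-fold or more higher (0.0933% of 10722 such genes) and 103 lower (0.961%), and at 1.5-fold the shares were 2.45% and 5.59%. The 2-fold line itself separates near-equal values, with METTL2A (1.01) just inside and TMEM177 (0.98) just outside it among higher genes, and ANKRD1 and STIM1, which both round to -1.0, on either side of it among lower genes.

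**Figure D1:**
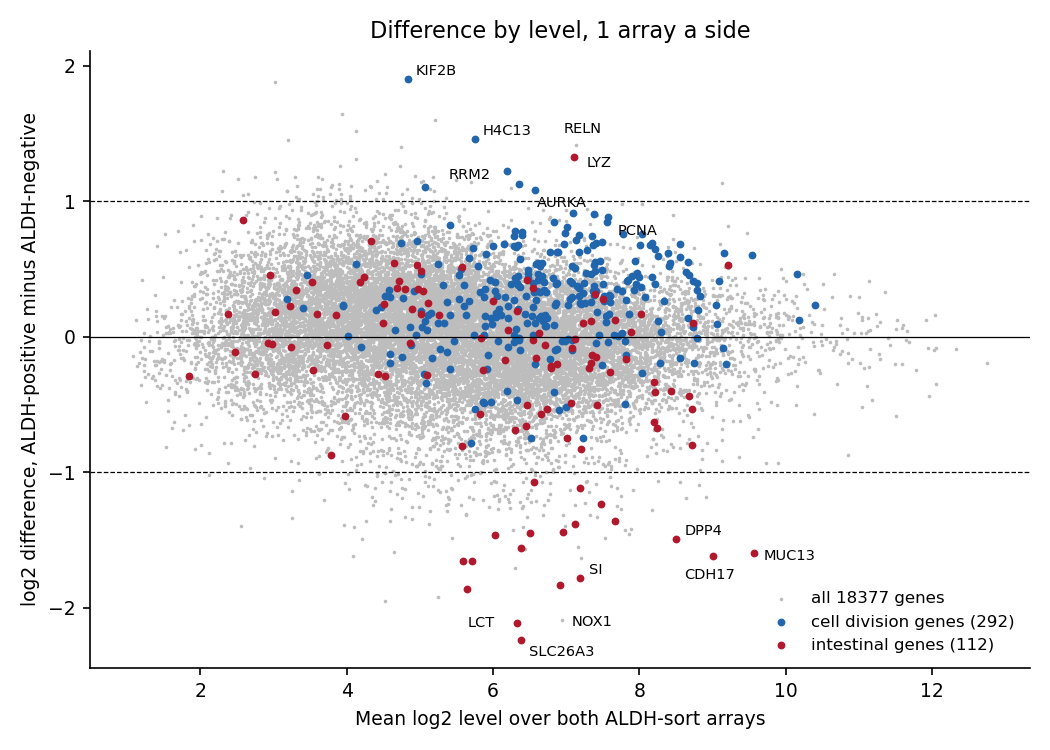
Each point is 1 gene, with its mean log2 level over both ALDH-sort arrays on the horizontal axis and its log2 difference, ALDH-positive minus ALDH-negative, on the vertical axis; dashed lines mark 2-fold. Cell division genes (blue, 292) lie mostly above 0 with a median of 0.30, and the intestinal genes (red, 112) include many of the lowest points, among them SLC26A3 at -2.24.

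Transcripts of liver cell products were bright in both fractions, and those of the aldehyde dehydrogenases hardly differed between them. The albumin gene ALB stood at 11.35 in the positive and 10.93 in the negative fraction, alpha-fetoprotein AFP at 11.63 and 11.56, and the fibrinogen gene FGB at 10.60 and 10.70. Of 19 measured ALDH genes, 10 were higher and 9 lower, with a median of 0.01, and 16 of them reached the floor. ALDH1A1, the retinal-oxidising enzyme most often linked to ALDH sorts, stood at 11.14 and 11.10, and the mitochondrial acetaldehyde enzyme ALDH2 at 9.44 and 9.34. The related retinal enzymes were dim, with ALDH1A3 at 5.13 and 4.69 and ALDH1A2 at 3.81 and 4.06, the latter below the floor on both arrays. The largest differences were those of ALDH8A1 (0.47, below the floor) and of the mitochondrial folate enzyme ALDH1L2 (-0.65, at 4.35 and 5.0). ALDH1B1 (-0.14), ALDH1L1 (0.08), ALDH3A1 (-0.04), ALDH3A2 (0.16), ALDH3B1 (-0.43), ALDH3B2 (-0.19), ALDH4A1 (0.33), ALDH5A1 (-0.44), ALDH6A1 (0.01), ALDH7A1 (0.34), ALDH9A1 (-0.02), ALDH16A1 (0.14) and the proline synthesis enzyme ALDH18A1 (-0.35) lay between them. No ALDH transcript therefore checks the labels of this sort. Of 23 genes of retinoid metabolism and retinoic acid response 11 were higher and 12 lower, with a median of -0.03; the retinol carrier RBP2, at 8.34 in the positive and 9.33 in the negative fraction, and the retinol dehydrogenase RDH10, at 7.80 and 8.66, were lower, and STRA6 (0.61) was higher. PROM1 stood at 7.11 in the positive and 8.39 in the negative fraction, 2.42-fold lower in the ALDH-positive fraction.

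Genes of nearly every role in cell division had higher levels in the ALDH-positive fraction, by small amounts. Over 292 measured genes of 11 lists that cover replication, mitosis, histones, repair and cycle inhibitors, 238 were higher and 54 lower, against 53.8% higher and 46.1% lower among all genes. Their median difference was 0.30, against 0.03 over all genes. In RNA of whole fractions, more dividing cells and more RNA per dividing cell cannot be told apart. At 1.5-fold, 51 (17.5%) were higher and 3 (1.03%) lower, against 2.68% and 4.27% of all genes. The 3 lower ones were the cycle inhibitors CDKN1A and TOB1 and the DNA damage kinase ATM. At 2-fold 6 (2.1%) were higher and 0 lower, against 0.180% and 0.838%. Of the 292, 271 reached the floor, against 11879 of all 18377 genes, so a larger part of them could be counted at all.

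The replication machinery was higher nearly throughout. Of 39 genes of origin licensing and the replication fork, 36 were higher and 3 lower, with a median of 0.35 and 6 at 1.5-fold. PCNA, the sliding clamp that holds DNA polymerase on its template, stood at 7.98 in the positive and 7.14 in the negative fraction. The clamp loader subunit RFC4 stood at 8.16 and 7.40, and GINS2, a part of the replicative helicase, at 7.36 and 6.60. The helicase subunit MCM4 (0.68), the helicase activator CDC45 (0.66) and the origin factor MCM10 (0.62) completed the 6. Nucleotide supply for DNA synthesis followed, with 12 of 16 genes higher and a median of 0.28. RRM2, the ribonucleotide reductase subunit whose level sets deoxynucleotide supply in S phase, stood at 6.80 and 5.57, a 2.34-fold difference. The dUTPase DUT was at 5.63 against 4.52, under the floor in the negative fraction, and thus at least 1.56-fold higher. The purine synthesis enzyme PAICS (0.64) and thymidylate synthase TYMS (0.62) passed 1.5-fold as well. Among 21 regulators of the G1 to S step, 17 were higher with a median of 0.23. The repressor E2F7 (0.66) and cyclin A, CCNA2 (0.59), led them, and the G1 kinase CDK6 stood at the low end at -0.49.

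Mitotic kinases and cyclins had the highest median of all lists. Of 34 mitotic kinases, cyclins and checkpoint genes, 32 were higher and 2 lower, with a median of 0.44 and 8 at 1.5-fold. The spindle pole kinase AURKA stood at 8.01 in the positive and 7.12 in the negative fraction, and the mitotic cyclin CCNB2 at 7.25 and 6.40. The chromosomal passenger protein CDCA8 (0.78), the kinase subunit CKS2 (0.68), the mitotic kinase CDK1 (0.67), the anaphase inhibitor FBXO5 (0.63), GTSE1 (0.62) and the centromeric kinase AURKB (0.59) came next. CCNB1, the other main mitotic cyclin, went against them at 8.78 and 8.79. Of 31 kinetochore and centromere genes 26 were higher with a median of 0.26. CENPN, which binds the centromeric nucleosome, stood at 7.55 and 6.64, CENPW at 5.83 and 5.0, and the microtubule-binding NDC80 at 6.76 and 6.01. Its complex partners SPC25 (0.71, under the floor in the negative fraction) and SPC24 (0.61) and the kinetochore protein DSN1 (0.67) passed 1.5-fold too. Spindle motors and cytokinesis genes were higher in 29 of 32 cases with a median of 0.32, led by the minus-end motor KIFC1 (0.81), the cleavage furrow scaffold ANLN (0.75) and the topoisomerase TOP2A (0.69), with the spindle motor KIF11 (0.68) and the midzone protein PRC1 (0.62) after them. KIF2B had the largest difference of the higher genes that reached the floor, 5.78 against 3.88, but lay under the floor in the negative fraction and was thus at least 1.74-fold higher. The condensin and cohesin list was less one-sided, with 12 of 19 higher and a median of 0.16, from the cohesin ring subunit SMC1A (0.76) and the condensin subunit NCAPH (0.71) down to the cohesin loader NIPBL (-0.54).

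Histone genes of the replication-dependent clusters, which are transcribed in S phase, were higher in 39 of 46 cases. Their median was 0.33, with 9 at 1.5-fold and 3 at 2-fold. H4C13 stood at 6.48 in the positive and 5.02 in the negative fraction, H2AC14 at 6.92 and 5.79, and the linker histone H1-2 at 7.12 and 6.04. H2AC4 (0.91), H4C8 (0.74), H3C7 (0.70), H2BC13 (0.69) and H4C1 (0.68) followed. These genes are near copies of each other and can share probe signal, so single members are uncertain. The variants H2AZ1 (0.68) and H2AX (0.65), which are made outside the clusters, were higher too. In the repair list of homologous recombination and Fanconi genes, 19 of 27 were higher with a median of 0.11, and RAD51AP1 (0.78), BRCA1 (0.74), the nuclease EXO1 (0.69) and FANCI (0.62) stood at one end and ATM, at 5.31 and 6.09, at the other. The inhibitors and quiescence genes did not share the shift: 9 of 19 were higher and 10 lower, with a median of -0.03 that ranged from -0.15 to 0.04 over the alternatives. CDKN1A, the inhibitor p21, stood at 6.14 and 6.88 and the antiproliferative TOB1 at 6.86 and 7.61, while CDKN2D (0.69) and BTG1 (0.61) were higher.

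**Figure D2:**
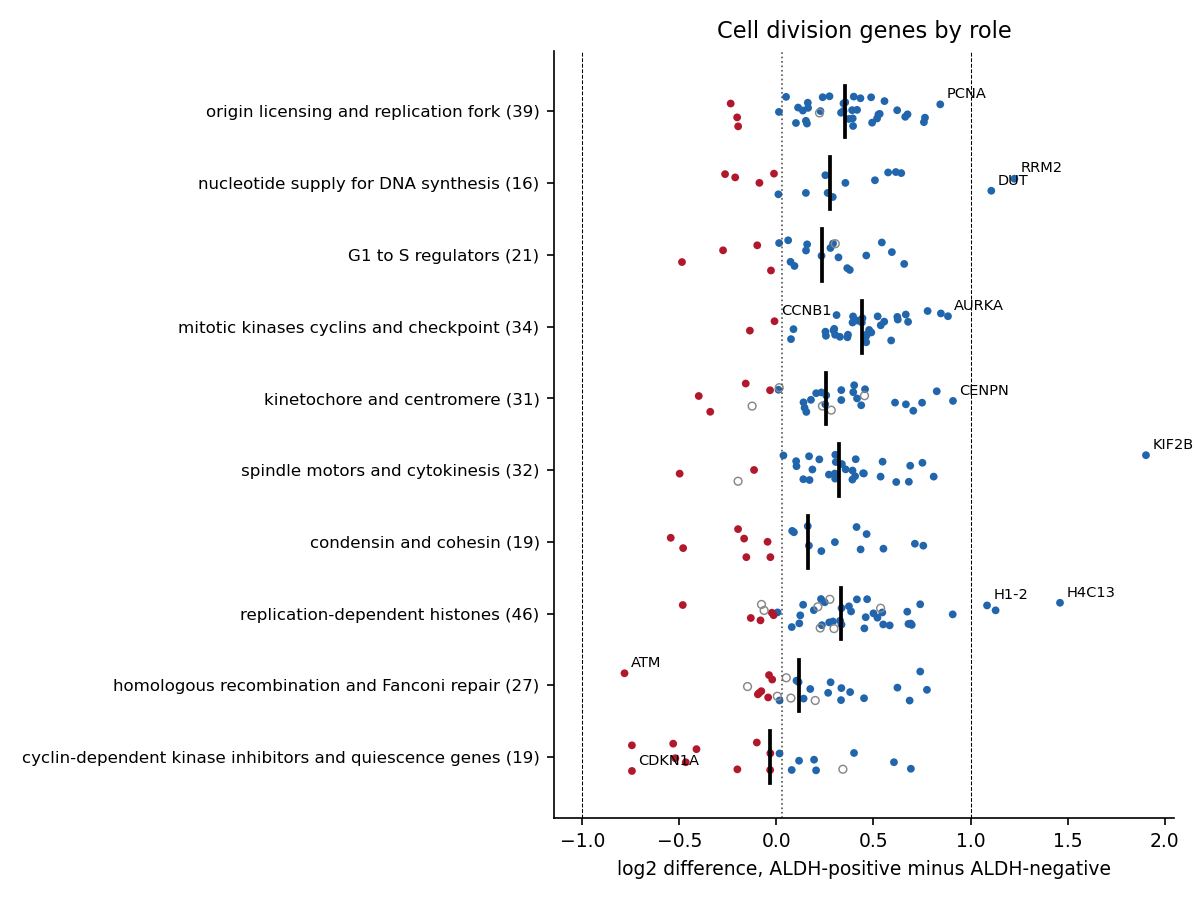
Each point is 1 gene of a cell division list (number measured in brackets) at its log2 difference, ALDH-positive minus ALDH-negative; blue and red points are genes above the floor that were higher and lower, open points lie below the floor on both ALDH arrays, and the spread of points within a list is for display only. Black bars mark list medians, from 0.44 for mitotic kinases to -0.03 for cycle inhibitors, the dotted line marks the median of all genes at 0.03, and dashed lines mark 2-fold.

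The low array in this group of genes was that of the ALDH-negative cells. Of the 292 cell division genes, 212 (72.6%) had their lowest level of the 4 arrays in ALDH-negative cells, against 28.4% of all genes. In ALDH-positive cells 37 (12.7%) had it, against 25.6%. The highest level lay in the CD133-negative cells for 163 genes (55.8%, against 28.1% of all genes) and in ALDH-positive cells for 53 (18.2%, against 31.0%). Over all genes with both ALDH arrays above the floor, the shares with the highest level there were 36.5% and 21.2%. For RRM2 the ALDH-negative array read 5.57, and the other arrays 6.80 (ALDH-positive), 6.76 (CD133-positive) and 6.95 (CD133-negative). The CD133 arrays were sorted separately, and whether sort and culture differ between the pairs is not stated.

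Promoters of RRM2, CCNB2 and H4C13 are printed because each is among the highest of a list that was shifted as a group and carries known cell-cycle promoter letters. Windows of 250 bases upstream of the start site are given 5′ to 3′ on the gene's strand, from RefSeq on GRCh38.p14; RRM2 has more than 1 such window and the one printed holds 3 matches. Capitals mark, on either strand, CCAAT (the CCAAT box), TTTGAA (the cell cycle homology region, CHR) in CCNB2 and TATAAA (the TATA box) in H4C13.
RRM2 promoter, chr2:10122489-10122738, plus strand: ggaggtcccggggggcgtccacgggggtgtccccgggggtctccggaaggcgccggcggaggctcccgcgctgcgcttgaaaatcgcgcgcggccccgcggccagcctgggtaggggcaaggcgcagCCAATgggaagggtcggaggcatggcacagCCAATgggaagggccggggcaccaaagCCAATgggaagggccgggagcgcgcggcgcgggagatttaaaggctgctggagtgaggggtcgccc
CCNB2 promoter, chr15:59104896-59105145, plus strand: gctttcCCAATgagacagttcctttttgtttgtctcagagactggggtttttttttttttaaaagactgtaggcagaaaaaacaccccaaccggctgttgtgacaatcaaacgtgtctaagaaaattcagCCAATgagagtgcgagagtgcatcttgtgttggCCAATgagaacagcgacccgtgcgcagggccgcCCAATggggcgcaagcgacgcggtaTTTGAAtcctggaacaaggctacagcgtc
H4C13 promoter, chr6:27873535-27873784, minus strand: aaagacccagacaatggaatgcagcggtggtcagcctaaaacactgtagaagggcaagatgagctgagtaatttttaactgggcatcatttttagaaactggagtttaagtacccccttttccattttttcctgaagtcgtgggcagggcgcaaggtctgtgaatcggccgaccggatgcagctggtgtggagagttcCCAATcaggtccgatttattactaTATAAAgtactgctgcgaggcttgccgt
Letters were searched on both strands in windows from 250 bases before to 50 after each start, in 14210 measured genes with such a window. TTTGAA was present for 17 of 25 mitotic kinase, cyclin and checkpoint genes (68.0%), 21 of 30 spindle genes (70.0%) and 0 of 33 replication genes, against 15.7% of all genes. CCAAT was present for 37 of 41 histone genes (90.2%) and 22 of 25 mitotic genes, against 42.2% of all. TATAAA was found for 28 of 41 histone genes (68.3%), against 11.9% of all. TTCCCGC, a core of E2F sites, was found for 14 of 33 replication genes (42.4%), against 10.9% of all. None of these strings overlaps another in the printed windows. A match describes letters in a window and is neither a bound site nor a cause.

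Members of the 5 intestinal lists, which cover the brush border, mucus, transport and transcription factors, made up 11 of the 20 lowest genes with both arrays above the floor. The lists hold 112 of the 18377 genes. They were chosen with earlier results of these data known, so this count is no independent support. Over the 112 measured genes of these lists, 69 were lower and 43 higher; the median was -0.15. At 2-fold, 19 were lower and 1 higher (background 0.838% and 0.180%), and at 1.5-fold 27 were lower and 1 higher (background 4.27% and 2.68%). Of the 112, 81 reached the floor. The ALDH-negative array held the highest of the 4 levels for 57 of the 112 (50.9%, against 24.0% of all genes), and the CD133-negative array the lowest for 65 (58.0%, against 26.9%). SLC26A3, for example, read 6.48 in CD133-positive and 4.15 in CD133-negative cells, a sort that shares no array with this one.

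Among 16 brush border enzymes, 11 were lower and 5 higher; the median was -0.28, and 5 were lower by 2-fold or more. LCT, the lactase of the brush border, stood at 5.27 in the positive and 7.39 in the negative fraction, a 4.33-fold difference. SI, which splits sucrose and isomaltose, stood at 6.30 and 8.08, and the dipeptidyl peptidase DPP4 at 7.76 and 9.25. The metalloprotease MEP1A stood at 6.99 and 8.35. CUBN, the receptor of vitamin B12 bound to intrinsic factor, was at 4.72 and 6.58 and thus at least 3.02-fold lower. Aminopeptidase N, ANPEP, stood at 8.32 and 9.11. The other 10 members lay closer together, 7 of them below the floor on both arrays, and the list median was 0.00 once values under the floor were set to it. All 17 measured genes of the scaffold and adhesion of microvilli were lower, with a median of -0.49 and 4 of them at 1.5-fold. CDH17, the liver-intestine cadherin, stood at 8.19 and 9.82, and the brush border myosin MYO1A at 5.60 and 7.16. The actin bundler PLS1 (-0.66), the protocadherin CDHR2 (-0.63) and villin VIL1 (-0.53) were lower by less. Under every alternative run for this list its median lay between -0.56 and -0.42.

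Mucins and mucus-associated genes divided into a lower group of expressed genes and a larger group near the floor. Of 27 measured, 13 were lower and 14 higher; the median was 0.16. At 1.5-fold, however, 8 were lower and 1 higher. The membrane mucin MUC13 stood at 8.76 in the positive and 10.36 in the negative fraction. The zymogen granule lectin ZG16 stood at 6.43 and 7.81, and the trefoil peptide TFF1 at 6.86 and 8.10. The other ZG16 probe gave -0.73. MUC15 (-1.12), TFF2 (-0.83) and MUC3A (-0.69) were lower too. The disulfide isomerase AGR2, which folds mucins, was at 4.76 and 6.42 and thus at least 2.71-fold lower. MUC12 was at least 2.95-fold lower by its chosen probe, but another of its 3 probes gave 0.02. Lysozyme, LYZ, went the other way at 7.77 and 6.44. Setting values under the floor to it gave a list median of 0.00, so the sign of 0.16 rests on values under the floor. The 9 members whose brighter array reached the 75th percentile of all values (6.48) had a median of -1.12. Members can reach it through 1 array alone, as ZG16 and MUC12 did through the ALDH-negative array. This median and the others at that percentile below are therefore not independent of the differences themselves.

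Over the 11 transporters of the absorptive surface whose brighter array reached the 75th percentile, the median was -0.51. SLC26A3, SLC51A, SLC15A1 and SLC7A7 reached it only in the ALDH-negative fraction, so that value is partly set by the filter. Of 27 endoderm transcription factors 25 had both arrays above the floor, and the 22 that reached the 75th percentile had a median of 0.0026. Of 25 nutrient and ion transporters 15 were lower and 10 higher; the median was -0.16, and 6 were at 1.5-fold lower. SLC26A3, which exchanges chloride for bicarbonate at the luminal surface, stood at 5.26 in the positive and 7.50 in the negative fraction, the largest difference of any gene above the floor. SLC51A, a subunit of the basolateral bile acid exporter, stood at 5.99 and 7.83, and its partner SLC51B at 6.63 and 7.38. The peptide transporter SLC15A1 stood at 5.30 and 6.76, the amino acid exchanger subunit SLC7A7 at 5.78 and 7.22, and the cystine transporter SLC7A9 at 5.18 and 5.98. The median of this list was also 0.00 once values under the floor were set to it. Among 27 endoderm transcription factors 14 were higher and 13 lower, and their median of 0.03 changed sign between alternatives (-0.05 to 0.09). HNF4G, a nuclear receptor of the intestinal epithelium, stood at 6.24 and 7.68, KLF4 at 6.03 and 7.10, and the intestinal factor CDX2 at 7.90 and 8.58, whereas the liver bud factor HHEX stood at 9.48 and 8.95.

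The promoters of SLC26A3, SI and MUC13 are shown because these genes led the lower group and hold GTTAAT, part of the site known for HNF1, a factor of liver and intestine. The windows are the 250 bases upstream of the start on the gene's strand, from RefSeq on GRCh38.p14, and capitals mark GTTAAT or its reverse complement.
SLC26A3 promoter, chr7:107803224-107803473, minus strand: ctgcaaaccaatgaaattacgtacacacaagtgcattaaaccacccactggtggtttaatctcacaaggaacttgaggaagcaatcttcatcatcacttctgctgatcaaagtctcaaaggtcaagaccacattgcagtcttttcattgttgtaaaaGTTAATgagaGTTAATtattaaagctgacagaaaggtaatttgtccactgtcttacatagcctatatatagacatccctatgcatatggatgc
SI promoter, chr3:165078497-165078746, minus strand: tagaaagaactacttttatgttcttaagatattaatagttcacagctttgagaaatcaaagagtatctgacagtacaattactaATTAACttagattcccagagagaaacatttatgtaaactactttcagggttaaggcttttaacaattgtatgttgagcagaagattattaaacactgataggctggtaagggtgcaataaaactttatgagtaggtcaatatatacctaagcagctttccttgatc
MUC13 promoter, chr3:124934752-124935001, minus strand: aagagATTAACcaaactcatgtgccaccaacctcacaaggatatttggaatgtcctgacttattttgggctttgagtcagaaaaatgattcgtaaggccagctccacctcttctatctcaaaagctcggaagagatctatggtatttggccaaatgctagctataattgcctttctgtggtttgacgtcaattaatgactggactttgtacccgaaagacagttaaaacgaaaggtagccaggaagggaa
GTTAAT on either strand was present for 8 of 23 intestinal transporters with a window (34.8%) and 4 of 13 brush border enzymes (30.8%), against 7.01% of all genes. It was found for 3 of 18 mucin and mucus genes (16.7%) and, at a like share, for 7 of 41 histone genes (17.1%), which were higher, and for 0 of 33 replication, 0 of 25 mitotic, 0 of 26 kinetochore and 0 of 30 spindle genes. The lists were small, and all genes served as the comparison without matching their base composition.

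**Figure D3:**
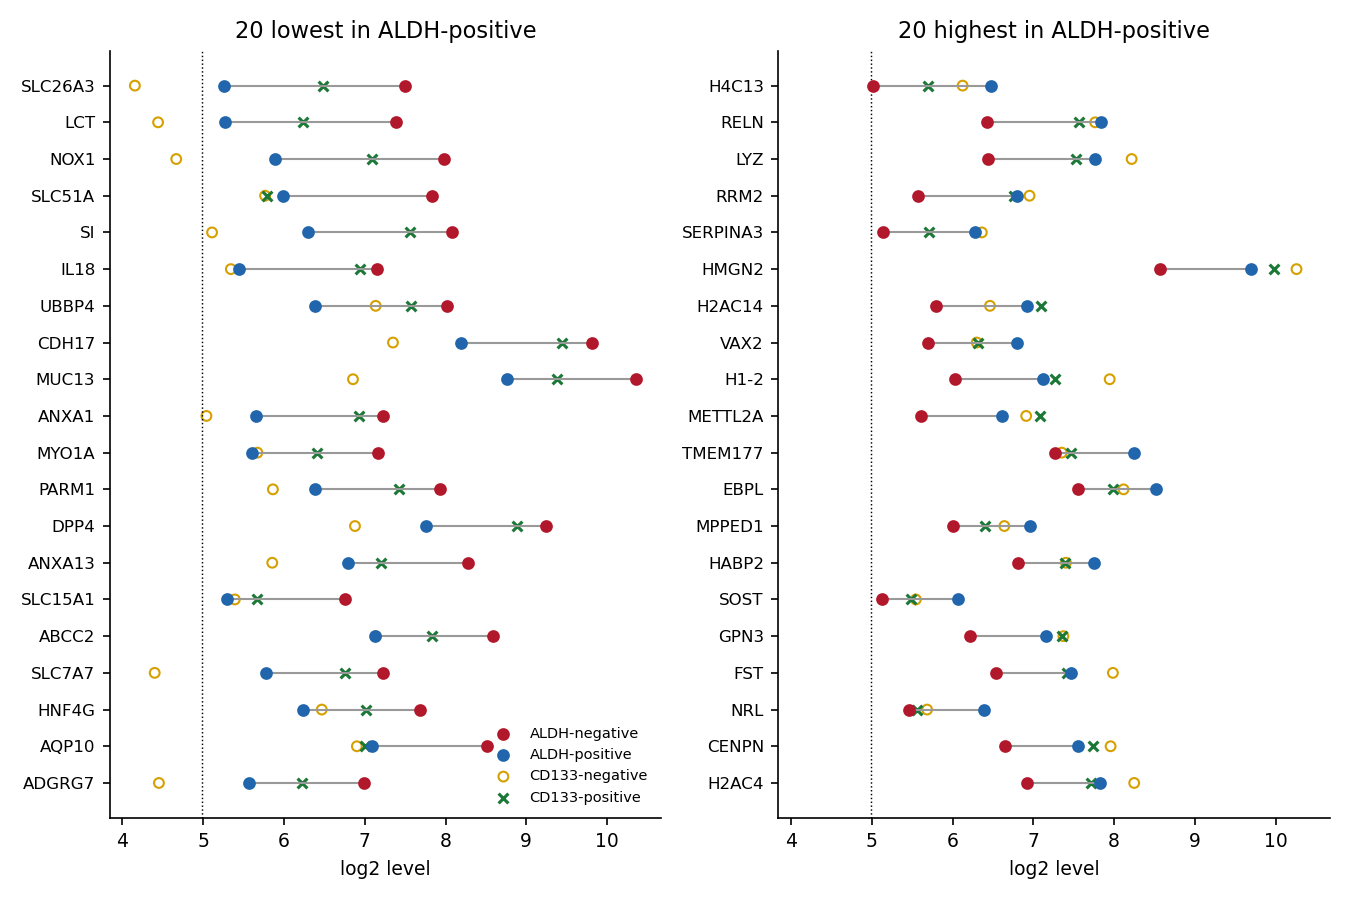
Each row is 1 gene with its log2 level on all 4 arrays, for the 20 genes lowest (left) and the 20 highest (right) in ALDH-positive cells among genes with both ALDH arrays above the floor, which is drawn as a dotted line at 4.98. Grey bars join the ALDH arrays; SLC26A3 spans 5.26 to 7.50 and H4C13 5.02 to 6.48.

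The other 9 of the 20 lowest genes, among them ABCC2 described below, had varied roles. NOX1, an oxidase of the colon epithelium that makes superoxide, stood at 5.89 in the positive and 7.98 in the negative fraction. Of 13 NADPH oxidase genes and subunits it was the only one at 1.5-fold (7.69%, against 4.27% of all genes lower). The list median was -0.08. The cytokine IL18 stood at 5.45 and 7.16, the phospholipid-binding ANXA1 at 5.66 and 7.23, and the related ANXA13 at 6.79 and 8.27. ANXA3 (-1.16) was the third annexin at 2-fold in a list of 25 annexins and S100 genes whose median was -0.17. PARM1 stood at 6.38 and 7.93, the water and glycerol channel AQP10 at 7.09 and 8.51, and the receptor ADGRG7 at 5.56 and 6.99. The ubiquitin pseudogene UBBP4, at 6.38 and 8.01, can share signal with its parent gene. Among the higher genes outside the cell division lists were the secreted glycoprotein RELN at 7.84 and 6.42, the acute-phase inhibitor SERPINA3 at 6.27 and 5.13, and the homeobox gene VAX2 at 6.80 and 5.70. HMGN2, a nucleosome-binding protein, stood at 9.70 and 8.57, but 1 of its 3 probes gave 0.15 against 1.02 and 1.13 from the others. METTL2A (1.01), TMEM177 (0.98), EBPL (0.98), MPPED1 (0.95), the plasma protease HABP2 (0.95), the Wnt antagonist SOST (0.94), GPN3 (0.94), the activin-binding FST (0.93) and NRL (0.93) completed the 20 with CENPN and H2AC4.

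Glutathione genes and the conjugating transferases were mostly lower. In the ABC transporter, cytochrome P450 and alcohol dehydrogenase lists the counts by any size were more even, but every member at 1.5-fold was lower. Of 28 glutathione transferase and glutathione synthesis genes, 22 were lower and 6 higher; the median was -0.26. At 1.5-fold 8 (28.6%) were lower, against 4.27% of all genes, and at 2-fold 4 (14.3%, against 0.838%). The gastrointestinal glutathione peroxidase GPX2 stood at 6.28 in the positive and 7.68 in the negative fraction, and SLC7A11, which imports cystine for glutathione, at 6.64 and 7.87. GSTA2 lay at 4.28 and 6.21 and GSTA1 at 6.29 and 7.18, and these paralogs can share probe signal with GSTA3, at 3.98 and 5.25. The microsomal transferases MGST1 (-0.73) and MGST3 (-0.69) were lower too. Of 18 glucuronosyl- and sulfotransferase genes 13 were lower, with a median of -0.48 that was 0.00 once values below the floor were raised to it, since 8 of the 18 lay below it on both arrays. The oestrogen sulfotransferase SULT1E1 stood at 5.76 and 6.98, SULT1C2 at 7.08 and 8.12, and the methyltransferase NNMT at 4.57 and 5.40. Of 42 ABC transporters 22 were lower and 20 higher, and their median lay between -0.08 and 0.04 over the alternatives that kept all members. Over the 13 members whose brighter array reached the 75th percentile of all values (6.48) it was -0.35. Their 5 members at 1.5-fold were all lower: ABCC2, which exports conjugates into bile, at 7.12 and 8.58, the dye and drug exporter ABCG2 at 5.61 and 6.87, the P-glycoprotein gene ABCB1 at 8.02 and 9.09, ABCC3 (-0.69) and the sterol exporter subunit ABCG5 (-0.68). Of 33 cytochrome P450 genes 20 were lower (60.6%, against 46.1% of all genes) and 13 higher. Their median was -0.07 (-0.44 over the 5 members that reached the 75th percentile), with CYP4F2 (-1.21), CYP2S1 (-1.07) and CYP2J2 (-0.74) as the 3 at 1.5-fold lower. The alcohol dehydrogenase and aldo-keto reductase list had 10 higher, 10 lower and a median of -0.01. AKR1B10, at 5.12 and 6.32, alone reached 1.5-fold there (5.0%, near the 4.27% of all genes).

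Amino acid transport and the ATF4 response leaned lower. Of 31 amino acid transporter genes, 26 were lower (83.9%, against 46.1% of all genes) and 5 higher. The median was -0.26, which stayed between -0.29 and -0.21 over the alternatives. At 1.5-fold 8 were lower (25.8%, against 4.27% of all genes) and 1 higher (3.23%, against 2.68%). Besides SLC7A7 and SLC7A11, the lysosomal transporter SLC36A1 stood at 6.30 in the positive and 7.21 in the negative fraction, the glutamate transporter SLC1A3 at 5.51 and 6.37, and SLC1A1 at 5.37 and 6.19. SLC7A9 and SLC43A2 (-0.61) also passed 1.5-fold. SLC6A14 was the exception, at 5.68 against 4.59, under the floor in the negative fraction. Of 32 genes of the ATF4 and amino acid stress response, 26 were lower (81.25%) and 6 higher, but the median was only -0.17. Those at 1.5-fold, 3 genes (9.38%) and all lower, were SLC7A11, the stress factor DDIT3 (-0.66) and ALDH1L2. NRF2 targets gave 19 lower (73.1%) and 7 higher of 26, with a median of -0.12. Their 5 members at 1.5-fold (19.2%), all lower, were ABCC2, SLC7A11, AKR1B10, ABCC3 and the glutathione synthesis subunit GCLC (-0.61). Hypoxia genes were lower in 19 of 24 cases (79.2%) with a median of -0.27, and 4 (16.7%) were at 1.5-fold lower. LOX, which crosslinks collagen, stood at 7.96 and 8.80 and the collagen hydroxylase P4HA1 at 8.14 and 8.96, ERRFI1 (-0.59) was lower too, and EGLN3 stood at the high end (0.56). Endoplasmic reticulum chaperones had a median of -0.15, with ERO1A (-0.93) and DNAJC3 (-0.63) at 1.5-fold lower, and the heat shock list was near 0 (-0.01), from which HSPA4L (-0.46) and HSPB8 (-0.43) lay farthest. The p53 target list had a median of -0.01, with the nuclease AEN (0.67) higher and CDKN1A lower, and of -0.34 over its 8 members that reached the 75th percentile. Of 33 interferon and antigen presentation genes 20 were lower (60.6%, against 46.1% of all genes) with a median of -0.09. PARP9, at 5.33 and 6.18, and OAS1, at 5.53 and 6.26, reached 1.5-fold (6.06%, near the 4.27% of all genes). Of 28 NF-kB targets, chemokines and interleukins 15 were higher and 13 lower; the chemokines CXCL10, at 5.96 and 5.11, and CXCL1 (0.69) were higher, and IL18 and CXCL3 (-0.60) lower.

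Liver-specific functions did not shift as one block. Over 262 genes of the liver lists the median was -0.10, with 161 lower (61.5%, against 46.1% of all genes) and 101 higher. At 1.5-fold 31 were lower (11.8%, against 4.27%) and 3 higher (1.15%, against 2.68%). Of 28 plasma carrier and acute-phase genes 17 were higher (60.7%, near the 53.8% of all genes), with a median of 0.14. In that list SERPINA3 and ITIH4 (0.76, under the floor in the negative fraction) stood at one end, and the copper oxidase CP, at 7.90 and 8.74, at the other, with the thyroid hormone carrier TTR at 11.22 and 11.81. Apolipoprotein and lipoprotein assembly genes leaned lower, with 15 of 21 lower (71.4%, against 46.1% of all genes) and a median of -0.17. The members that load and carry chylomicrons and VLDL led them: SAR1B stood at 6.84 and 7.77, TM6SF2 at 7.36 and 8.27, and MTTP, the transfer protein that lipidates apolipoprotein B, at 8.91 and 9.80. The lipocalin APOD was at 4.70 and 5.85, under the floor in the positive fraction. APOB itself differed by -0.20 and APOA1 by 0.25. Coagulation genes had a median of -0.07 and 0 of 31 reached 1.5-fold, the ends being the carboxypeptidase CPB2 (0.56) and the fibrinogen gene FGG (-0.51). Complement genes had 11 higher and 11 lower, with the protease C1R (0.62) and the lectin MBL2 (-0.64) at the ends. In the urea cycle list the median was 0.03, and CPS1 (at 4.24 and 5.36), histidase HAL (at 4.96 and 6.28) and arginase ARG1 (at 5.72 and 6.31) were at 1.5-fold lower. Bile acid and organic ion transporters were lower in 16 of 20 cases (80.0%, against 46.1% of all genes), with a median of -0.20. SLC51A and SLC51B also count there, followed by SLCO1A2 (-1.05, under the floor in the positive fraction), SLC16A10 (-0.75) and SLCO2B1 (-0.67). Nuclear receptors gave 14 lower of 21 (66.7%, against 46.1% of all genes). AHR (-0.70) and PPARG (-0.65) were at 1.5-fold lower (9.52%, against 4.27%).

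**Figure D4:**
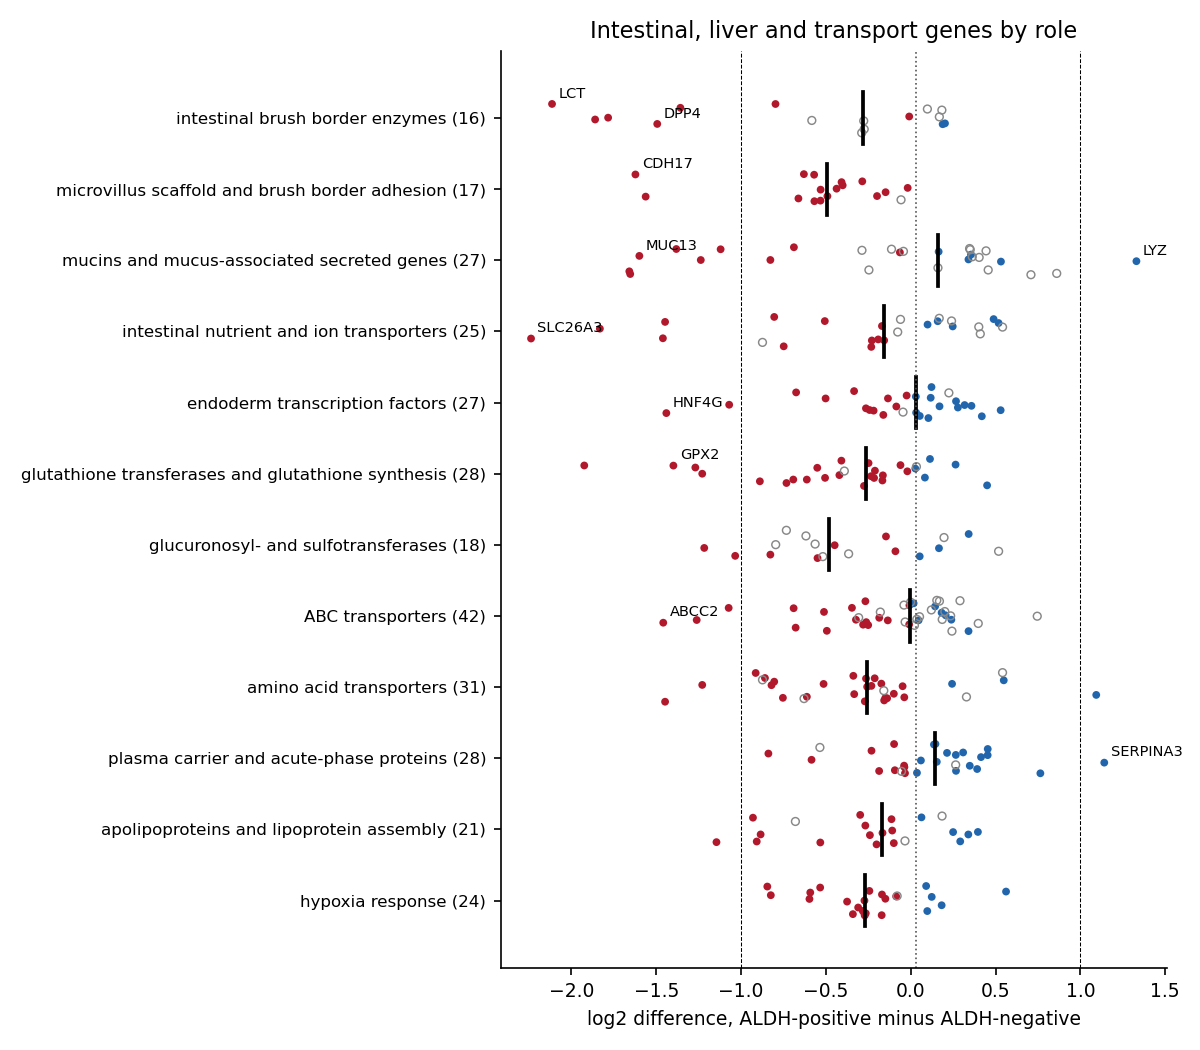
Each point is 1 gene of an intestinal, liver or transport list (number measured in brackets) at its log2 difference, ALDH-positive minus ALDH-negative, with blue, red and open points for genes above the floor and higher, above the floor and lower, and below the floor on both arrays. Black bars mark list medians, the lowest being -0.49 for the microvillus list, and the dotted line marks the median of all genes at 0.03.

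Most core metabolism and housekeeping lists stayed near the median of all genes. Cholesterol genes had 13 higher and 13 lower, with SOAT2 (-0.63) and INSIG2 (-0.60) at 1.5-fold lower. Fatty acid synthesis genes had a median of -0.04, with the acyl-CoA synthetase ACSL5, at 6.76 in the positive and 8.09 in the negative fraction, the only one at 2-fold, and with CIDEB (-0.74) and ACSS2 (-0.61) at 1.5-fold lower. Fatty acid oxidation and ketogenesis genes leaned lower, with 17 of 25 lower (68.0%, against 46.1% of all genes). Their median was -0.12, and it lay between -0.15 and -0.08 over the alternatives that kept all members. Among these genes the electron carrier ETFDH (-0.94) and among 29 glycolysis and gluconeogenesis genes PCK1 (-0.88) were the only members at 1.5-fold. Respiratory chain genes had a median of -0.07, in which the complex IV subunit COX7B, at 5.70 and 7.10, had the largest difference; of the other 42, ATP5PB (0.72) and ATP5PD (-0.62) alone reached 1.5-fold. Cytosolic ribosomal protein genes had a median of 0.04 that turned negative under some alternatives (-0.07 to 0.09), with RPL22 (0.61), RPS13 (-0.62) and RPL10A (-0.62) at 1.5-fold. Proteasome subunits leaned higher, with 22 of 32 higher (68.75%, against 53.8% of all genes). Their median was 0.13, and 0.06 with the gene-length step described below. PSMA6 (0.65) alone reached 1.5-fold (3.125%, near the 2.68% of all genes).

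Surface proteins by which liver cancer stem cells are often sorted differed in both directions in the ALDH sort. Of 16 such markers, 10 were higher and 6 lower, with a median of 0.08 that was -0.0008 with the gene-length step described below. Of the 16, 4 reached 1.5-fold and all were lower, where 4.27% of all genes were lower by as much. They were PROM1, ABCG2, EPCAM, at 7.88 and 8.89, and ANPEP. Over the 7 markers whose brighter array reached the 75th percentile the median was -0.80. ABCG2 reached it only in the ALDH-negative fraction, so that value is partly set by the filter. The other EPCAM probe gave -0.68. CD44, at 4.34 and 4.41, and THY1, at 4.58 and 4.50, lay below the floor on both arrays, and CD24 stood at 9.83 and 9.73. Of 20 oncofetal and progenitor genes 11 were higher and 9 lower, with EPCAM and SPP1 as the 2 at 1.5-fold lower. Signalling lists had medians between -0.13 and 0.10. Wnt genes (median 0.09, and -0.22 over the 15 that reached the 75th percentile) included the ligands WNT10A (0.74), WNT1 (0.64) and WNT3A (0.63) at the high end and the receptor FZD3 (-0.89) at the low end. Of the Notch genes, HEY1 (-0.72), HEY2 (-0.64, under the floor in the positive fraction) and the DNA-binding partner RBPJ (-0.62) were at 1.5-fold lower, with a list median of 0.04. The direction for RBPJ turned with the probe, since its other probe gave 0.59 (5.86 and 5.27). FST was the only TGF-beta and BMP gene at 1.5-fold. No Hedgehog gene above the floor reached it, and GLI3 (0.64) and HHIP (0.63), which differed most, lay below the floor. Of 39 receptor tyrosine kinases and ligands 19 were higher and 20 lower, with PDGFRA higher and TYRO3 (-0.70) and the hepatocyte growth factor receptor MET (-0.61) lower. Hippo targets had a median of -0.13, with ANKRD1 (-1.0), the coactivator WWTR1 (-0.74) and AJUBA (-0.66) lower. Genes of epithelial-mesenchymal transition had a median of -0.01, and of -0.29 over the 12 that reached the 75th percentile, from SNAI3 (0.68) to the matrix protein SPARC (-0.61). Immediate early genes, which respond within minutes to handling, had a median of 0.00, with DUSP2 (0.88) higher and KLF4 lower.

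Junction and matrix genes differed in both directions. Among tight junction genes CLDN4 stood at 5.43 in the positive and 6.52 in the negative fraction and CLDN7 at 6.33 and 7.31, while CLDN19 (0.59) was higher, with a list median of -0.15 over 26 genes. The intestinal tetraspanin TSPAN8, at 7.13 and 8.26, was the only one of 31 tetraspanins at 1.5-fold (3.23%, near the 4.27% of all genes lower). Collagen and matrix genes had a median of 0.14, and of -0.17 over the 19 members whose brighter array reached the 75th percentile. COL2A1, at 8.32 and 9.50, and COL14A1, at 6.02 and 7.34, were at least 2-fold lower. COL12A1, at 4.67 and 5.81, and LAMA4, at 4.33 and 5.38, were lower and under the floor in the positive fraction, and RELN and COL4A2 (0.63, under the floor in the negative fraction) were higher. Of 15 keratins KRT14, at 5.62 and 4.66, alone reached 1.5-fold (6.67%, against 2.68% of all genes higher). The bright KRT8 (-0.03) and KRT18 (-0.20) differed little. Iron handling genes had a median of -0.13, where the ferroxidase HEPH, at 4.13 and 5.46, lay under the floor in the positive fraction.

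Markers of other cell types lay mostly near or below the floor. Of 17 leukocyte markers 6 reached the floor, and 14 were higher in the positive fraction; the median difference was 0.35 and the median levels 4.54 and 4.03. Their summed linear level was 750.0 in the positive and 619.4 in the negative fraction. PTPRC, the pan-leukocyte marker CD45, stood at 2.64 and 2.52 and the T cell marker CD3E at 4.14 and 4.13. LYZ and the receptor LILRB2, at 5.12 and 3.92, were the 2 at 1.5-fold higher, and the macrophage marker CD68 (-0.77) was lower. Endothelial markers, with a median of 0.15 over 11, included PECAM1 (-0.93) and CDH5 (-0.67), both under the floor in the positive fraction. At or above the floor were 4 of these 11, 7 of 12 fibroblast, 4 of 8 biliary and 6 of 11 neural markers, whose median levels in the positive fraction were 4.31, 5.05, 5.06 and 5.06. The median difference was 0.03 for the fibroblast list, with the receptor PDGFRA at 5.56 and 4.78, and the defining DCN and LUM, at 2.63 and 2.65 in the positive fraction, lay far below the floor. It was 0.11 for the biliary list, where SPP1 (-0.66) was the only gene above the floor to reach 1.5-fold, and 0.11 for the neural list, from RBFOX3 (0.54) to NEFM (-0.47). Of 4 red cell markers 0 reached the floor, with ALAS2 (0.23) and SLC4A1 (0.23) differing most. Dim genes as a whole leaned higher in ALDH-positive cells: the median difference was 0.11 for 3718 genes with a mean level under 4, 0.13 between 4 and 5, -0.04 between 6 and 7 and -0.02 from 8 up. Olfactory receptor genes, of which only 9 of 359 reached the floor, had a median of 0.14, and 4 of them differed by 2-fold or more without the floor. The part of this trend in the dim higher genes was not tested.

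The remaining genes at least 2-fold higher were dim. Besides the genes named above they were LAMP5, DUSP29, HHIPL1, DENND1C, TPBG, LOC100130872, APCDD1, HAND1, CAV3, C5AR1, EMILIN3, SLC22A8, FAM47C, CCDC85B, ZNF574, NMRAL1, LOC100127955, LINC02981 and the microRNA gene MIR503. Each of these lay under the floor in the negative fraction. Set against the floor, LAMP5 was at least 2.03-fold and TPBG at least 2.12-fold higher, and the others lay between 1.01-fold and 1.85-fold. MIR503 stood at 5.44 and 4.04. Its mature products are shown because it was the only microRNA gene at 2-fold; the array probe reports the gene's transcript and does not tell them apart. Capitals mark the seed, bases 2 to 8, and the sequences are from RefSeq on GRCh38.p14 (chrX, minus strand).
hsa-miR-503-5p: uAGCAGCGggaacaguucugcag
hsa-miR-503-3p: gGGGUAUUguuuccgcugccagg
By RNA class, 173 microRNA genes had a median of 0.13, with 36 above the floor, 7 at 1.5-fold higher (4.05%) and 1 lower (0.578%). Long non-coding RNA genes (631) had a median of 0.17 with 29 at 1.5-fold higher (4.60%, against 2.68% of all genes) and 6 lower (0.951%, against 4.27%). For the 175 genes of small nucleolar RNAs it was -0.15, with 1 higher (0.571%) and 11 lower (6.29%). The protein-coding genes (16865) had 440 higher and 747 lower.

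Differences also followed the length of the gene. Over the genes with both arrays above the floor, of which 99.9% could be given the length of the gene on the genome, split into 5 equal groups by length, the median difference was 0.09 in the shortest (median length 3.66 kb), then 0.04, -0.01 and -0.09, and -0.18 in the longest (median 137 kb). The share at 1.5-fold lower was 2.33% in the shortest and 9.71% in the longest group, and the share at 1.5-fold higher 4.90% and 0.607%. In the CD133 sort the medians were 0.01 and -0.07. The 154 genes at 2-fold lower had a median length of 53.7 kb and the 33 at 2-fold higher 13 kb, against 24.5 kb over all genes. Cell division genes (median 23.0 kb) were of ordinary length. Within 5 such groups of all genes their median difference was 0.34, 0.28, 0.39, 0.28 and 0.10 from the shortest to the longest, where all genes gave 0.12, 0.08, 0.03, -0.03 and -0.07. With the median of the gene's length group taken away, a step added once the values were known, the cell division median was 0.26 and that of the intestinal genes -0.19. The median of the histone genes, which are very short, was 0.21 in place of 0.33, and that of the replication genes 0.35 both ways. The part of gene length in any single difference was not tested.

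**Figure D5:**
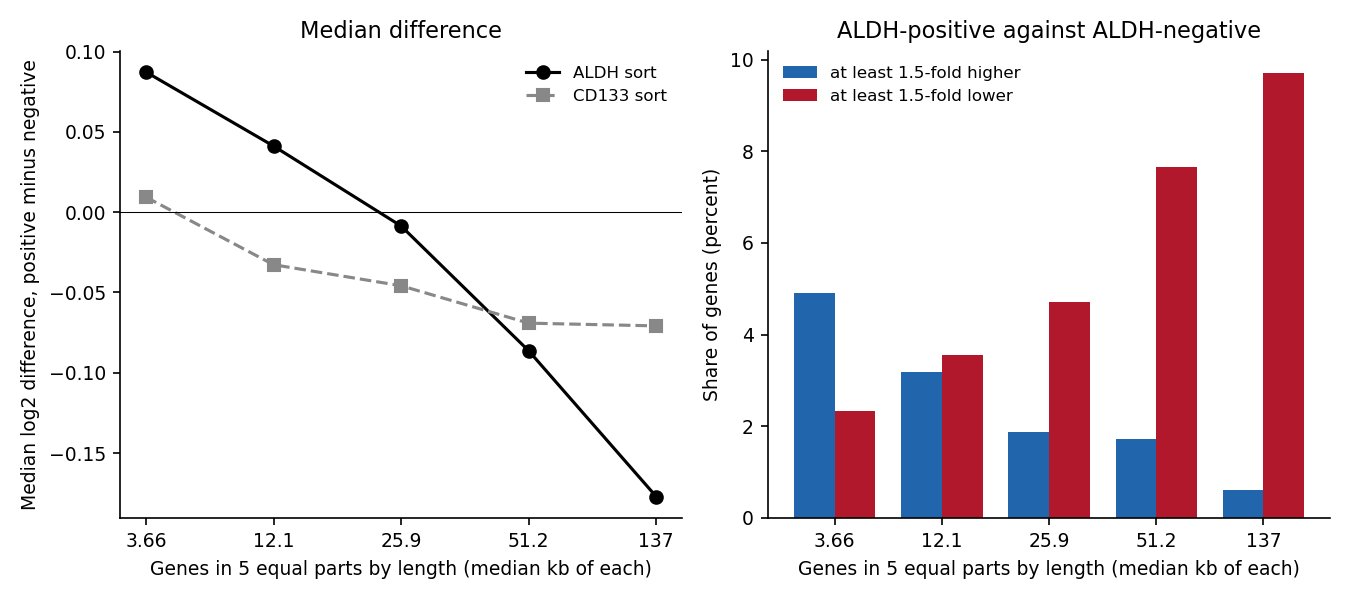
Left, the median log2 difference, positive minus negative fraction, in 5 equal groups of genes by length (median kb on the axis), for the ALDH sort (black) and the CD133 sort (grey); right, the percent of genes in each group at least 1.5-fold higher (blue) or lower (red) in ALDH-positive cells. In the ALDH sort the median goes from 0.09 to -0.18 and the share at 1.5-fold lower from 2.33% to 9.71%.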

How the data were processed

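RNA of 4 sorted Huh7 fractions was measured with 1 array each; the labels' protocols name Trizol for total RNA and biotin as the label. The authors deposited log2 values made by RMA, robust multi-array averaging, according to the submitters' processing notes; which software was used and which genome build underlies the probes are not given in the sources used here. Since RMA makes the arrays' distributions alike, a change common to most genes is lost, and differences of dim probes come out too small.

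Of 28869 probes, the platform annotation gave 19310 exactly 1 symbol and 1752 several, and did not list 7807; 19279 of the 19310 matched a RefSeq gene identifier (GRCh38.p14), and 0 symbols had to be updated. The result was 18377 genes, of which 685 had several probes. Gene length is the span of the RefSeq gene, used for its size only. Folds are powers of 2 of the log2 difference, and "at least" sets the floor of 4.98 in place of a dimmer array below it. Lists are described by counts and medians over all measured members, beside the same over all genes; 70 lists held 1635 measured genes. The genes and lists were chosen with earlier results of these data known. Named were PROM1 and every ALDH gene, the 20 highest and 20 lowest differences among genes with both arrays above the floor, every gene 2-fold higher, and per list up to 8 members a direction at 1.5-fold (where none, the 2 that differed most), with list-defining members named at any size. STIM1, the CD133-sort examples and the genes named in the closing part outside this rule were chosen after their values were seen. Among genes with more than 1 probe above the floor (352), the probes' differences lay a median of 0.16 and, at the 95th percentile, 0.76 apart.

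Alternatives were 1.5-fold, leaving out the floor, placing it at the 75th percentile, setting values under it to it, the mean over probes and each probe alone, centring the pair, a second quantile normalization, and loess (span 0.4); removal of the gene-length median was added after the data were seen. The counting was tested on simulated data. Python 3.11.15, pandas 2.3.3, numpy 2.4.6, statsmodels 0.14.6 and matplotlib 3.10.9 were used.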

Additional observations from a re-analysis of the deposited data

Results flagged for a closer look

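Probes that the platform annotation does not tie to a single gene also carried differences, and none of them enters the comparison above. Among the 7807 probes with no listed symbol, 1953 reached the floor; 25 were higher in ALDH-positive cells by 2-fold or more, 65 were lower by as much, and the median difference was -0.0022. Of the 1752 probes with several symbols, 1058 reached the floor; 4 were higher and 9 lower by 2-fold or more, with a median of 0.04. With 1 array a side no probe has a replicate check, and no gene is named from these probes.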

How the results depend on the processing

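The numbers of genes past the threshold depended on where the threshold and floor were set. At 1.5-fold in place of 2-fold, 493 genes were higher and 784 lower. Without a floor 79 genes were at least 2-fold higher, with a floor at the 75th percentile (6.48) 8 were higher and 94 lower. Setting values under the floor to it left 12 higher. Loess kept 24 of the 33 higher and 146 of the 154 lower genes at 2-fold, and removal of the gene-length median kept 25 and 134. No gene of either set changed sign under centring, a second quantile normalization, loess, the gene-length step, the mean over probes or the raised floor. That is no support for them. They were chosen for a difference of at least 1, which small shifts cannot reverse, and raising values to the floor reverses none. Probes of one gene can disagree, as for MUC12, HMGN2 and RBPJ above. With the floor at the 75th percentile, list medians cover only the members whose brighter array reached it. A member can reach it through 1 array alone, so these medians are not independent of the differences they summarise. Of the 67 lists with such members 26 moved, 24 of them downwards, and 12 took the opposite sign. Among the 12 were mucins (0.16 to -1.12), stem-cell markers (0.08 to -0.80), collagens (0.14 to -0.17) and Wnt genes (0.09 to -0.22). Each fraction was on 1 array, so the fold of a single gene has no error estimate. For the 6498 genes below the floor on both arrays a single difference is not reliable. List medians and counts by any size nevertheless include such genes where they are members. No paired analysis was possible because each fraction has 1 array and no replicate numbers.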

Other observations

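Of the 154 genes that were lower by 2-fold or more, 102 were in none of the lists. Zinc-finger genes with a ZNF symbol, most of which encode DNA-binding repressors, were singled out after their values were seen: of 493 measured, 292 were lower and 201 higher; the median was -0.11, against 0.03 over all genes, and 34 were at 1.5-fold lower against 5 higher, beside 4.27% and 2.68% of all genes. ZNF117 stood at 5.31 in the positive and 6.57 in the negative fraction, ZNF841 at 5.60 and 6.80, ZNF431 at 5.57 and 6.75, and ZNF91 at 6.24 and 7.32. Their median in the CD133 sort was -0.14, their median gene length 23.4 kb, and their median in the ALDH sort with the gene-length median removed -0.16.

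Single genes at 2-fold lower outside the lists, picked after their values were seen and forming no counted group, follow. GUCY2C, the receptor of guanylin in the gut, stood at 7.16 in the positive and 8.34 in the negative fraction, the ion transport regulator FXYD3 at 7.53 and 8.81, the zinc importer SLC39A4 at 6.63 and 7.77, the trypsinogen PRSS3 at 6.73 and 7.88, and the galectin LGALS3 at 7.34 and 8.48. The long non-coding RNA UCA1 stood at 8.04 and 9.23, and the small antimicrobial peptide gene LEAP2 at 5.98 and 7.19. The golgin genes of the trans-Golgi, GCC2 (5.60 and 6.83) and GOLGA4 (6.22 and 7.22), were also at least 2-fold lower. Genes with a low share of G and C in the promoter leaned lower as well: the median difference was -0.07 in the lowest of 5 equal groups and 0.0026 in the highest, with 8.29% and 4.06% at 1.5-fold lower, over the 80.4% of genes with both arrays above the floor that had a promoter value.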
